A study of Mus musculus with 18 samples.

Results

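Granins and the membrane proteins of the insulin granule were measured in mouse pancreatic islets as a set of 10 genes. The set was chosen by symbol: Chga, Chgb, Scg2, Scg3, Scg5, Vgf and Pcsk1n for soluble granule cargo, and Ptprn, Ptprn2 and Slc30a8 for proteins of the granule membrane. The 10 genes were found among 54186 gene symbols, and all 10 passed the filter on low counts that kept 20244 genes. Bulk RNA was sequenced from islets of 18 mice on the FVB background aged 6 weeks, with 1 library per mouse and 6 mice in each of 3 genotypes. Mice labelled WT carried no transgene. Mice labelled hIAPP expressed human islet amyloid polypeptide (IAPP, a peptide hormone stored and released with insulin) from a transgene under the insulin II promoter. Mice labelled rIAPP expressed the rodent form of the peptide from a transgene under the same promoter. That promoter is active in beta cells, while the RNA came from whole islets, which also hold alpha, delta and other cells. In such bulk RNA, fewer cells of a type and less RNA per cell cannot be told apart.

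Endocrine cells store peptide hormones in dense-core granules that bud from the trans-Golgi network. Granins are acidic proteins that aggregate at the low pH and high calcium of that compartment, take part in sorting hormones into granules, and are themselves cut into peptides. Chromogranins A and B (Chga, Chgb) and secretogranin II (Scg2) are the classical members, and secretogranin III (Scg3) links chromogranin A to cholesterol-rich granule membrane. Scg5 encodes 7B2, the chaperone of prohormone convertase 2, and Pcsk1n encodes proSAAS, an inhibitor of prohormone convertase 1/3. Vgf encodes a peptide precursor that was first found as a gene induced by nerve growth factor. Ptprn (IA-2) and Ptprn2 (phogrin) encode transmembrane proteins of the granule with a phosphatase-like domain, and Slc30a8 encodes ZnT8, which carries into the granule the zinc with which insulin is packed. IA-2, phogrin and ZnT8 are autoantigens in human autoimmune diabetes.

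The promoters are shown because cyclic AMP signalling, which rises in beta cells when secretion is stimulated, is known to act on granin genes through the cyclic AMP response element (CRE). The RefSeq promoter table used here (build GRCm38.p6) was matched for 8 of the 10 genes, the others being Vgf and Slc30a8. The 250 bases before each start were searched on both strands, with the first start listed where a gene, such as Ptprn, had more than 1. The full CRE, TGACGTCA, was present before Scg2 and Chgb, and before 1.62% of 27025 promoters of the same length. The sequence TGACGTAA, which differs from it at a single base, was present before Chga and before 0.477% of all promoters. The core TGACG, which overlaps both, was present before 6 of the 8 genes (Chga, Chgb, Scg2, Scg3, Scg5 and Ptprn) and before 17.9% of all promoters. In the 3 sequences below, written 5′ to 3′ on the strand of the gene, capitals mark the CRE or its near match. They lie at chr12:102554691-102554940 on the plus strand for Chga, chr2:132781392-132781641 on the plus strand for Chgb, and chr1:79440027-79440276 on the minus strand for Scg2.
Chga: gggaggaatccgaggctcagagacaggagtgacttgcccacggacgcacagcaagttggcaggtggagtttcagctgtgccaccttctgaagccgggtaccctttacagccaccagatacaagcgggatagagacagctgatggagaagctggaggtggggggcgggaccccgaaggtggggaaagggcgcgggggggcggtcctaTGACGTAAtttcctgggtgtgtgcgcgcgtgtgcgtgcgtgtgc
Chgb: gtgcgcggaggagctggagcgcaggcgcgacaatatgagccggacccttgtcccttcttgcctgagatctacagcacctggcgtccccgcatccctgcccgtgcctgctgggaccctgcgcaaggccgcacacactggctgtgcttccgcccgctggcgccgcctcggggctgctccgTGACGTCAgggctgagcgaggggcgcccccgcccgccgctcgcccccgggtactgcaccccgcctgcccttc
Scg2: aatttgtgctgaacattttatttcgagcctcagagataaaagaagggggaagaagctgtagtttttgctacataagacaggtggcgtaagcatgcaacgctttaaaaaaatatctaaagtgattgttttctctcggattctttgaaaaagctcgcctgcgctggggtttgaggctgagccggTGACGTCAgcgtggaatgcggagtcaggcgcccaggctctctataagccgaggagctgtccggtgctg
The capitals begin 44 bases before the start of Chga, 72 before that of Chgb and 68 before that of Scg2. A TATAAA box, the C/EBP-ATF element TGATGNAA and TTCAGCACC, the left part of the element bound by the repressor REST, were not found in these windows of the 8 genes. They were present before 3504, 954 and 77 of the 27025 promoters.

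In GENCODE M21 the 10 genes lie on 6 autosomes and the X chromosome and are protein-coding. The chromogranin genes span chr12:102554969-102565028 (Chga) and chr2:132781278-132795079 (Chgb). The secretogranin genes span chr1:79434669-79440120 (Scg2), chr9:75643189-75684056 (Scg3) and chr2:113776362-113829121 (Scg5). Vgf spans chr5:137026392-137033351 and Pcsk1n spans chrX:7919822-7924410. The membrane protein genes span chr1:75247027-75264502 (Ptprn), chr12:116485720-117276849 (Ptprn2) and chr15:52295553-52335798 (Slc30a8). The RefSeq starts used for the promoters differ from the GENCODE starts for some genes. The promoter windows of Chgb and Ptprn lie wholly within these GENCODE spans, and those of Scg2 and Scg5 lie partly within them. By GENCODE, the CREs of Chgb and Scg2 thus lie downstream of the outermost gene start. Exons of Pcsk1n share 135 bases (6.16% of its exon length) with Eras on the opposite strand, and exons of Ptprn share 189 bases (4.45%) with the antisense gene Gm28294. The strand setting of the counting is not given in the sources used here, so reads from these shared stretches cannot be assigned to a strand.

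Libraries held 109596594 to 166233667 estimated counts, and the 10 genes took 1.63% to 2.44% of them. The labelled tissue carried its defining hormones, with Ins1 and Ins2 at 4.18% to 10.2% of counts and the alpha cell hormone gene Gcg at 17589 to 31496 CPM (counts scaled to library size with TMM factors). Summed over 23 of 24 listed acinar markers, which mark exocrine tissue, WT libraries held 912 to 3735 CPM, hIAPP libraries 2376 to 15696 and rIAPP libraries 4014 to 17415. Summed over 15 macrophage markers, WT libraries held 152 to 177 CPM, hIAPP libraries 395 to 788 and rIAPP libraries 107 to 121. In each of these 2 lists none of the measured markers was at 0. Alpha cells also make granins, and the sum over 9 alpha cell markers overlapped between the genotypes (18566 to 29838 CPM in WT, 19623 to 27186 in hIAPP and 19231 to 32688 in rIAPP). Endothelial markers were higher in rIAPP than in WT in 12 of 12 cases and lower in hIAPP than in rIAPP in 12 of 12, with sums of 723 to 819.8 CPM in WT, 645 to 746 in hIAPP and 912 to 1021 in rIAPP. Mesenchymal markers were higher than in WT in 9 of 12 cases in each transgenic line. Their sums were 829 to 1172 CPM in WT, 1116 to 2044 in hIAPP and 1442 to 2323 in rIAPP. Schwann and neural markers had sums of 132 to 144 CPM in WT, 132 to 148 in hIAPP and 98.9 to 128 in rIAPP. In rIAPP against WT, 2 of these 14 markers were higher and 2 were lower. The acinar score, the mean log2 CPM of the measured acinar markers, was tried as a covariate. The acinar sums of WT and rIAPP did not overlap, so there the covariate cannot separate acinar tissue from genotype. The part of the endothelial, mesenchymal, macrophage, Schwann, neural and alpha cell markers in the results was not tested. Libraries hIAPP 5 and hIAPP 6 stand apart from the other hIAPP libraries, with the highest acinar sums (8934 and 15696 CPM), the highest macrophage sums (788 and 679.9) and the lowest insulin shares (4.71% and 6.05%) of their group. Calls of named genes in hIAPP that were lost without these libraries are given with both values.

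In WT islets the 10 genes covered a range of about 3 orders of magnitude in level per exon length (CPM per kilobase of exon). Chga was the highest, at 3915 ± 418 (mean ± SD, n = 6), and ranked 10 among the 19560 genes with a length. Scg2 followed at 2471.03 ± 182, then Scg5 at 879 ± 61.4, Chgb at 812 ± 129 and Scg3 at 617 ± 64.4. Slc30a8, at 398 ± 44.8, was the highest of the 3 membrane protein genes. Pcsk1n lay at 77.1 ± 5.52, Ptprn2 at 68.3 ± 2.63 and Ptprn at 32.8 ± 3.18. Vgf was the lowest, at 3.55 ± 0.234, and ranked 7108. In this order the WT values of Scg5 and Chgb, of Chgb and Scg3, and of Pcsk1n and Ptprn2 overlapped, and the other neighbours did not.

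In hIAPP islets Scg2 (2564 ± 567 CPM per kilobase) and Chga (2415 ± 626) overlapped at the top of the order, whereas in rIAPP islets Chga (3483 ± 168) lay clear of Scg2 (1660 ± 201). Vgf stayed the lowest of the 10 genes in the 3 genotypes, at 9.004 ± 1.51 in hIAPP and 1.87 ± 0.633 in rIAPP. With the longest transcript in place of all exons, Ptprn2 in WT lay at 139 and so above Pcsk1n at 77.1.

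**Figure D1:**
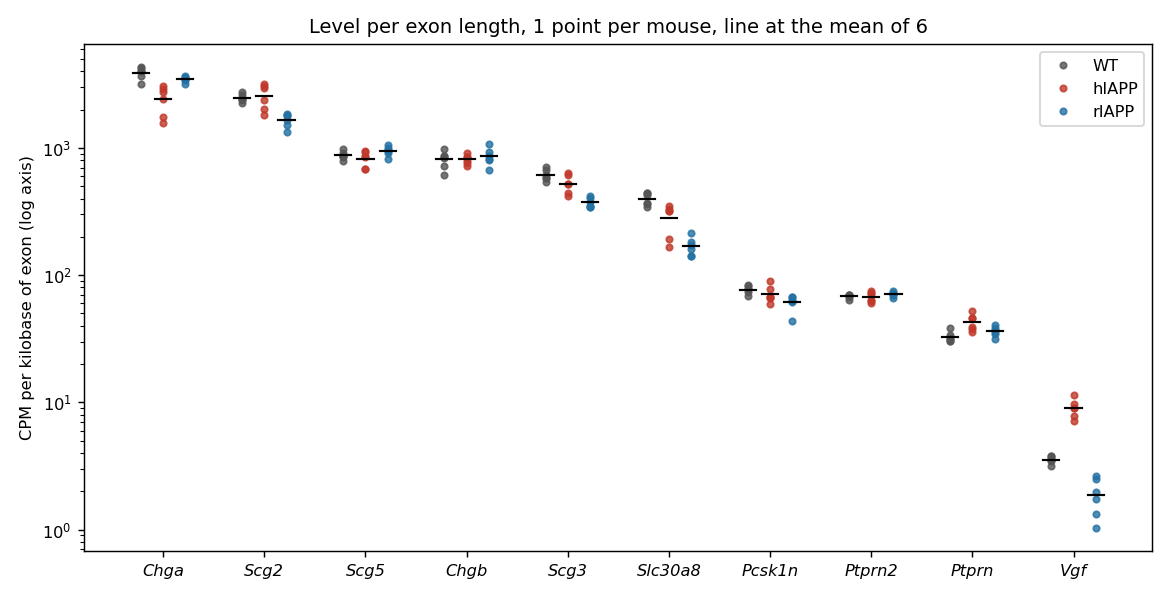
Level per exon length (CPM per kilobase, log axis) of the 10 genes, ordered by the WT mean, with 1 point per mouse and a line at the mean of 6 mice per genotype. Chga and Scg2 head the order and Vgf ends it, with WT means of 3915, 2471.03 and 3.55.

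The comparisons asked how granule genes differed in islets that make the human peptide, which tends to aggregate, or the rodent peptide, which does not. Each form of the peptide came with its own transgene, so its effect and other differences between the lines cannot be told apart. A gene was called at an edgeR adjusted p under 0.05, fitted and adjusted over all 20244 genes. Against WT, hIAPP islets had 4 of the 10 genes changed, with Vgf and Ptprn higher and Chga and Slc30a8 lower, beside 15.8% of all genes called (8.31% higher and 7.53% lower). Against WT, rIAPP islets had 5 of the 10 genes lower (Scg2, Scg3, Vgf, Pcsk1n and Slc30a8), beside 12.6% of all genes called lower, 14.1% higher and 26.8% in either direction. None of the 10 was called higher in rIAPP (edgeR with TMM, with 0 at an unadjusted p under 0.05 and 0 in DESeq2 and in limma-voom). Between the transgenic lines, hIAPP islets had 5 genes higher than rIAPP (Scg2, Scg3, Vgf, Ptprn and Slc30a8) and Chga lower, beside 27.6% of all genes called (13.5% higher and 14.1% lower).

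The 6 values of each genotype did not overlap for Vgf (higher) and Chga (lower) in hIAPP against WT, beside 3.74% of all genes higher and 2.89% lower without overlap (6.63% in all). In hIAPP against rIAPP they did not overlap for Vgf and Scg3 (higher) and Chga (lower), beside 6.52% of all genes higher and 6.85% lower (13.4% in all). In rIAPP against WT the 5 genes that fell did not overlap, beside 6.75% of all genes lower and 8.13% higher (14.9% in all). Scaling by library totals alone, which moved the median of all genes to 0.11 in hIAPP against WT and 0.10 in rIAPP against WT, took the share of higher genes among those called from 52.5% to 86.7% and from 52.8% to 76.4%. Under that scaling Scg5 (0.24, adjusted p = 0.0149) and Ptprn2 (0.17, adjusted p = 0.0274) were called higher in rIAPP than in WT.

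Abundant genes were called more often. Among the 1172 genes with a mean of at least 100 CPM, which include 9 of the 10 members (Vgf lies below), 20.6% were called in hIAPP against WT, 38.2% in hIAPP against rIAPP and 42.4% in rIAPP against WT. Of the 9 members, 3, 5 and 4 were called in these comparisons, and the 4 of 9 in rIAPP against WT is near that background. The median log2 fold change of the 10 genes was -0.06 in hIAPP against WT, 0.23 in hIAPP against rIAPP and -0.25 in rIAPP against WT, beside medians between -0.01 and 0.00 over all genes. The comparisons share libraries, so their values are not independent of each other.

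**Figure D2:**
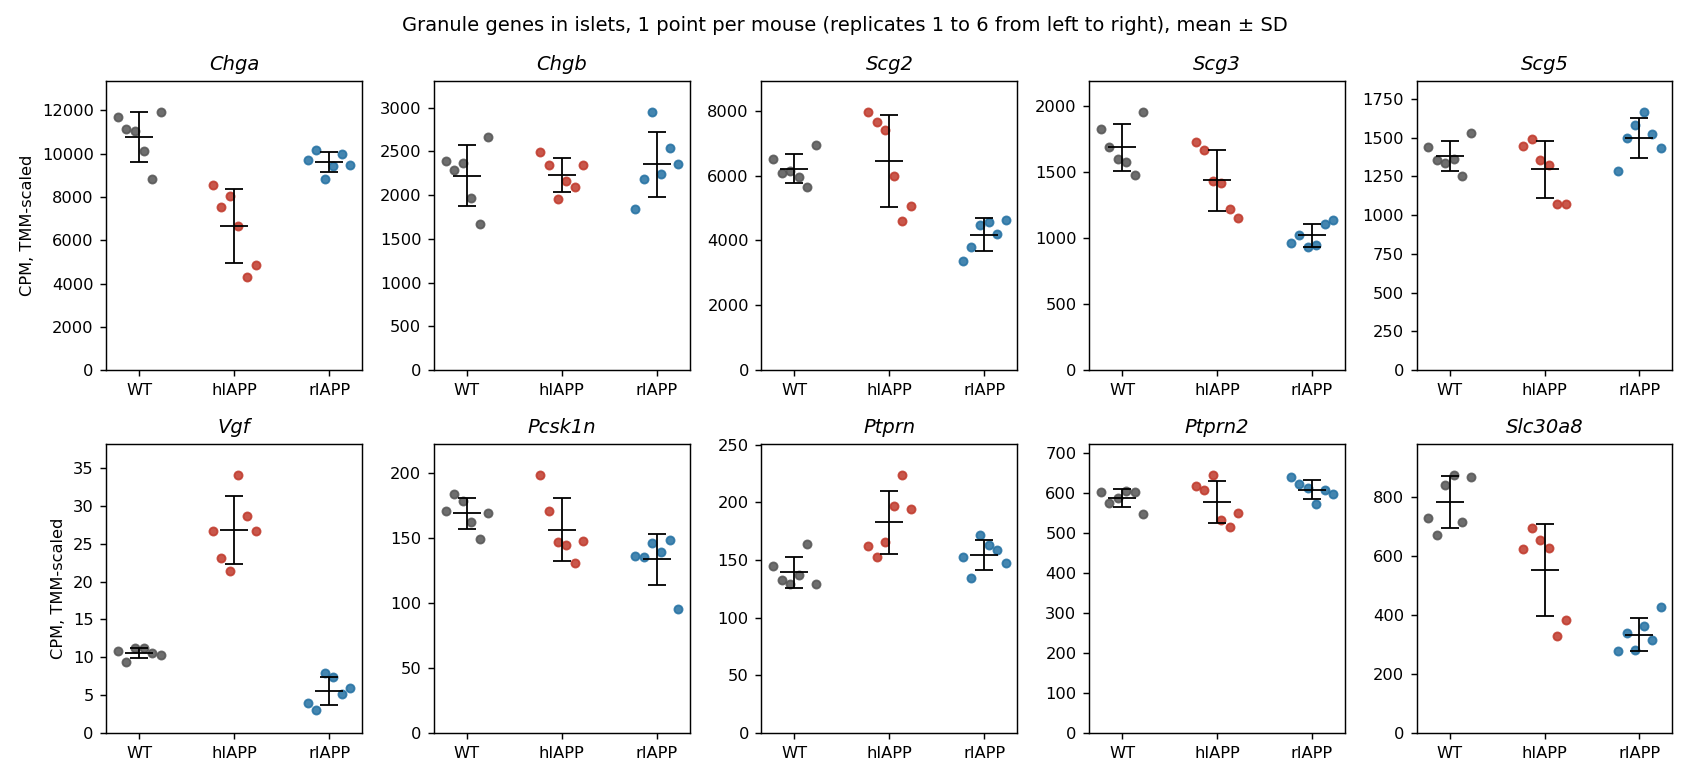
TMM-scaled CPM of each gene in the 18 libraries, with 1 point per mouse (replicates 1 to 6 from left to right within a genotype) and the mean ± SD of 6 mice, on axes that start at 0. Vgf separates the 3 genotypes without overlap, Chga is low in hIAPP, and Scg3 and Slc30a8 are low in rIAPP.

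**Figure D3:**
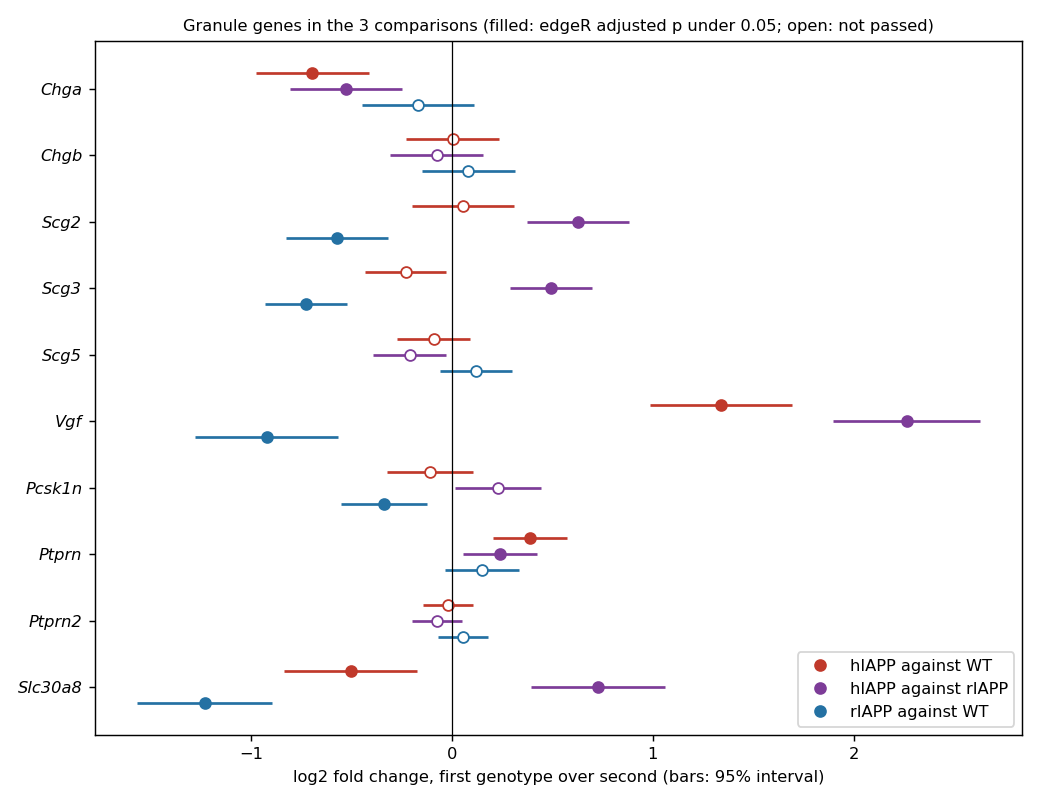
Log2 fold change of each gene in the 3 comparisons, first genotype over second, with the 95% interval from the edgeR fit. Filled points passed an adjusted p under 0.05 and open points did not, and Vgf has the widest spread, from -0.92 in rIAPP against WT to 2.27 in hIAPP against rIAPP.

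Vgf changed in opposite directions in the transgenic lines. The hIAPP libraries held 21.4 to 34.1 CPM (median 26.7), the WT libraries 9.32 to 11.2 (median 10.7) and the rIAPP libraries 3.07 to 7.87 (median 5.54). The 3 groups did not overlap. Behind these levels lay 403 to 5135 estimated counts per library. Against WT, Vgf rose in hIAPP by a log2 of 1.34 ± 0.17 (SE, edgeR adjusted p = 2.18e-05), which is 2.53-fold (95% interval of the log2 value 0.99 to 1.70). Vgf fell in rIAPP, with a log2 fold change of -0.92 ± 0.17 (adjusted p = 3.22e-04). The lines differed by 2.27 ± 0.18 (edgeR adjusted p = 5.72e-09), or 4.81-fold.

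The Vgf rise in hIAPP was as large without hIAPP 5 and hIAPP 6 (1.32, edgeR adjusted p = 2.43e-04) and with the acinar score as a covariate (1.49, adjusted p = 0.00106). In rIAPP the fall was -0.75 with that covariate (adjusted p = 0.0856). Macrophage markers were higher in the same hIAPP libraries, and their part in the Vgf rise was not tested. The Vgf level in hIAPP 1 to 6 was 26.6, 23.1, 21.4, 34.1, 28.7 and 26.7 CPM, beside macrophage sums of 430.4, 493, 395, 539, 788 and 679.9 CPM. Within that genotype both were lowest in hIAPP 3, but Vgf was highest in hIAPP 4 and the macrophage sum in hIAPP 5. Libraries hIAPP 1 and hIAPP 6 had near-equal Vgf (26.6 and 26.7 CPM) beside macrophage sums of 430.4 and 679.9 CPM. Between genotypes, Vgf and the macrophage sum were both lower in rIAPP than in WT and hIAPP, without overlap.

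Chga, the most abundant granin per length in WT, was lower in hIAPP than in both other genotypes. The hIAPP libraries held 4325 to 8533 CPM (median 7094), the WT libraries 8811 to 11925 (median 11106) and the rIAPP libraries 8845 to 10158 (median 9591). Every hIAPP library lay below the WT and rIAPP libraries, and WT and rIAPP overlapped. Against WT, Chga fell in hIAPP by 0.70 ± 0.13 on the log2 scale (SE, edgeR adjusted p = 0.00144), and against rIAPP it was lower by a log2 of -0.53 ± 0.13 (edgeR adjusted p = 0.00541). In rIAPP against WT the value was -0.17 (95% interval -0.45 to 0.11, edgeR adjusted p = 0.406).

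The lowest Chga levels were those of hIAPP 5 (4325 CPM) and hIAPP 6 (4856), and the other 4 hIAPP libraries held 6647 to 8533. Without these 2 libraries the values were -0.48 against WT (edgeR adjusted p = 0.00159) and -0.32 against rIAPP (adjusted p = 0.00944). With the acinar score as a covariate the value against WT was -0.48 and the call was lost (adjusted p = 0.120), and the value against rIAPP was -0.63 (adjusted p = 0.00154). That score differs between the genotypes, being higher in both transgenic lines than in WT.

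Chgb, the second chromogranin, passed in none of the comparisons. Its libraries held 1666 to 2669 CPM in WT (median 2330), 1960 to 2494 in hIAPP (median 2249) and 1841 to 2951 in rIAPP (median 2300), so the groups lay over each other. The 95% intervals of its log2 fold change were -0.23 to 0.24 in hIAPP against WT, -0.31 to 0.16 in hIAPP against rIAPP and -0.15 to 0.31 in rIAPP against WT. Chga and Chgb therefore had unlike values in hIAPP. The ratio of Chga to Chgb counts within a library, which no scaling factor touches, was 4.47 to 5.29 in WT and 2.07 to 4.10 in hIAPP, without overlap, and 2.998 to 5.26 in rIAPP.

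Scg2, the precursor of the peptide secretoneurin, was lower in rIAPP. The rIAPP libraries held 3355 to 4646 CPM (median 4347), below the 5652 to 6955 of WT (median 6109), and the hIAPP libraries spread from 4606 to 7959 (median 6696). Against WT, Scg2 fell in rIAPP by 0.57 ± 0.12 on the log2 scale (SE, edgeR adjusted p = 0.00130). It was higher in hIAPP than in rIAPP by 0.63 ± 0.12 (edgeR adjusted p = 6.13e-04), with an overlap only between hIAPP 5 (4606 CPM) and rIAPP 6 (4646). When hIAPP 5 and hIAPP 6 were left out the difference was 0.80. In hIAPP against WT the value was 0.05 (95% interval -0.20 to 0.31, adjusted p = 0.832). With the acinar score as a covariate the fall in rIAPP was -0.19 (adjusted p = 0.571), and the difference between the lines was 0.52 (adjusted p = 0.00125).

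Within a library, Scg2 counts were 0.544 to 0.642 times those of Chga in WT, 0.901 to 1.06 times in hIAPP and 0.346 to 0.508 times in rIAPP. These ranges did not overlap, and hIAPP 5 (1.06) and hIAPP 6 (1.04) were the highest of their group. The 2 granins that head the order of levels were thus found in unlike proportions in the 3 genotypes.

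Scg3 had the same order as Scg2 in the transgenic lines. Its level was 1481 to 1957 CPM in WT (median 1643), 1154 to 1731 in hIAPP (median 1428) and 937 to 1138 in rIAPP (median 995). The rIAPP libraries lay below the WT and the hIAPP libraries. Against WT, Scg3 fell in rIAPP by 0.73 ± 0.10 on the log2 scale (SE, edgeR adjusted p = 9.55e-06), and with the acinar score as a covariate by 0.48 (adjusted p = 0.0343). It was higher in hIAPP than in rIAPP by 0.49 ± 0.10 (edgeR adjusted p = 6.69e-04), and by 0.61 when hIAPP 5 and hIAPP 6 were left out. In hIAPP against WT the value was -0.23 (95% interval -0.44 to -0.03, adjusted p = 0.117), and it passed only in the run without hIAPP 1 (-0.29, adjusted p = 0.0474).

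Scg5, the chaperone gene of prohormone convertase 2, did not pass in the 3 comparisons. Its level was 1250 to 1531 CPM in WT (median 1360), 1074 to 1493 in hIAPP (median 1340) and 1288 to 1666 in rIAPP (median 1510). The convertase itself, Pcsk2, fell in rIAPP by 0.66 ± 0.09 on the log2 scale (SE, edgeR adjusted p = 8.69e-06) and its hIAPP value was -0.30 ± 0.09 (adjusted p = 0.0231), a call that was lost without hIAPP 5 and hIAPP 6 (-0.21, adjusted p = 0.150). Scg5 counts were therefore 0.333 to 0.357 times those of Pcsk2 in WT, 0.376 to 0.439 times in hIAPP and 0.463 to 0.660 times in rIAPP, without overlap between the genotypes. In hIAPP against rIAPP the Scg5 value of -0.21 (95% interval -0.39 to -0.03, adjusted p = 0.0802) passed in 7 of 30 alternative runs, among them DESeq2 (adjusted p = 0.0440), the acinar covariate (adjusted p = 0.0216) and those without hIAPP 2 or rIAPP 1.

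Pcsk1n, the inhibitor gene of prohormone convertase 1/3, fell in rIAPP. Its level was 149.8 to 184 CPM in WT (median 170.03), 131 to 199 in hIAPP (median 147) and 95.6 to 149 in rIAPP (median 138). The rIAPP and WT libraries did not overlap, and rIAPP 6 (95.6 CPM) lay far below the other rIAPP libraries (136 to 149). The fall against WT was 0.34 ± 0.10 on the log2 scale (SE, edgeR adjusted p = 0.0172), and without rIAPP 6 it was 0.25 (adjusted p = 0.0323). With the acinar score as a covariate it was -0.11 (adjusted p = 0.746). The convertase gene Pcsk1 fell further in rIAPP, by 1.90 ± 0.18 on the log2 scale (adjusted p = 7.90e-08), and its hIAPP value was -0.53 ± 0.17 (adjusted p = 0.0419), a call that was lost without hIAPP 5 and hIAPP 6 (-0.33, adjusted p = 0.249). Pcsk1n counts were 0.163 to 0.245 times those of Pcsk1 in WT, 0.204 to 0.359 times in hIAPP and 0.299 to 0.930 times in rIAPP. The limit of 0.299 was that of rIAPP 6, and the other 5 rIAPP libraries lay at 0.585 to 0.930, above the hIAPP range.

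**Figure D4:**
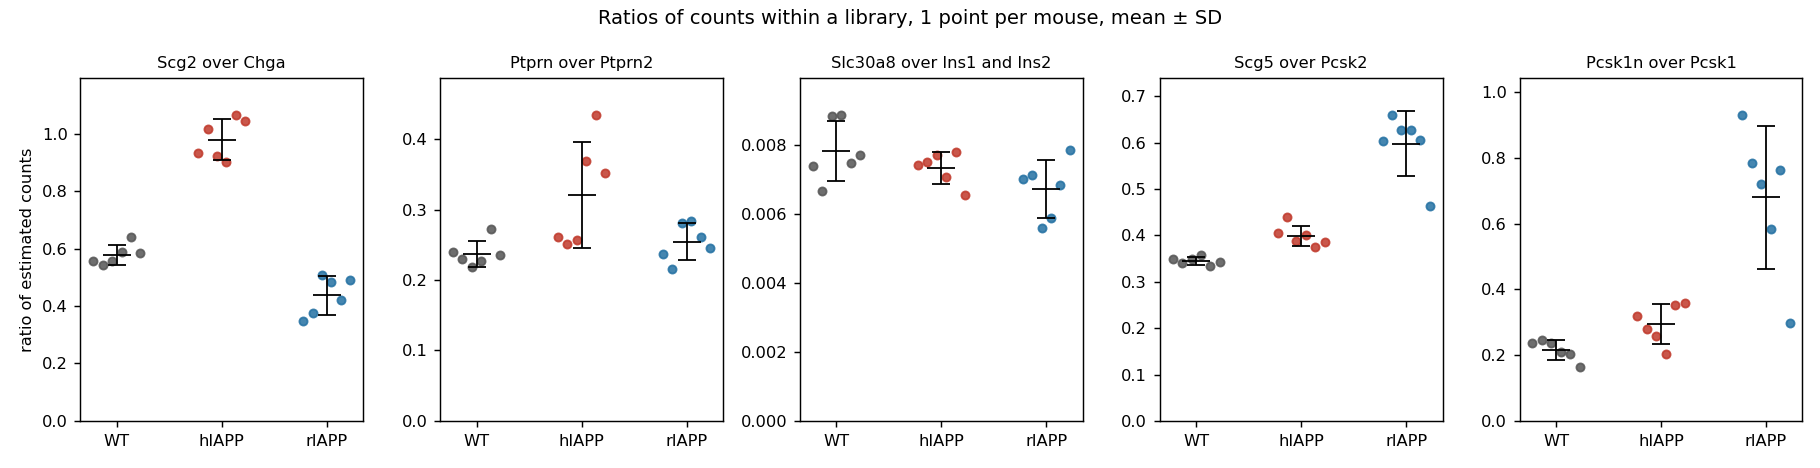
Ratios of estimated counts within a library, with 1 point per mouse and the mean ± SD of 6 mice per genotype, on axes that start at 0. Scg2 over Chga and Scg5 over Pcsk2 separate the 3 genotypes without overlap, while Slc30a8 over the sum of Ins1 and Ins2 overlaps between them.

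The granule membrane genes Ptprn and Ptprn2 had unlike values. Ptprn was 129 to 164 CPM in WT (median 135), 153 to 224 in hIAPP (median 179.9) and 134 to 172 in rIAPP (median 156). It rose in hIAPP against WT by 0.39 ± 0.09 (SE, edgeR adjusted p = 0.00526), and WT 5 (164 CPM), the highest of its group, lay within the hIAPP range. Without hIAPP 5 and hIAPP 6 the value was 0.29 (adjusted p = 0.0433), and with the acinar score as a covariate it was 0.38 and the call was lost (adjusted p = 0.113). The difference between hIAPP and rIAPP, 0.24 ± 0.09 (edgeR adjusted p = 0.0485), lay close to the threshold and was lost in 21 of 30 alternative runs, among them those that left out WT 1, 2, 3, 4 or 6, hIAPP 4, 5 or 6, or rIAPP 1, 2, 4, 5 or 6. Without both hIAPP 5 and hIAPP 6 it was 0.13 (adjusted p = 0.295).

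Ptprn2 was 548 to 606 CPM in WT (median 596), 516 to 647 in hIAPP (median 579.7) and 573 to 642 in rIAPP (median 610.3). It did not pass in the 3 comparisons, with 95% intervals of the log2 fold change of -0.14 to 0.10 in hIAPP against WT, -0.20 to 0.05 in hIAPP against rIAPP and -0.07 to 0.18 in rIAPP against WT. Its coefficient of variation among WT libraries, 3.85%, was the lowest of the 10 genes, beside 15.9% for Chgb, the highest. Ptprn counts were 0.219 to 0.272 times those of Ptprn2 in WT, 0.251 to 0.434 times in hIAPP and 0.216 to 0.284 times in rIAPP. The ratio was highest in hIAPP 4, hIAPP 5 and hIAPP 6 (0.369, 0.434 and 0.352).

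Slc30a8, the zinc transporter gene, fell in both transgenic lines, and more in rIAPP. Its level was 672 to 877 CPM in WT (median 785), 328 to 695 in hIAPP (median 626) and 278 to 426.4 in rIAPP (median 327). The rIAPP and WT libraries did not overlap. In rIAPP against WT, Slc30a8 fell by 1.23 ± 0.16 on the log2 scale (SE, edgeR adjusted p = 6.40e-06), and with the acinar score as a covariate by 1.03 (adjusted p = 0.0125). In hIAPP against WT it fell by 0.51 ± 0.16 (edgeR adjusted p = 0.0358), and with that covariate the value was -0.37 and the call was lost (adjusted p = 0.399). The lines differed by 0.73 ± 0.16 (edgeR adjusted p = 0.00167).

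The Slc30a8 level was 328 CPM in hIAPP 5 and 381.8 in hIAPP 6, within the rIAPP range, and 625 to 695 in the other hIAPP libraries. Without these 2 libraries the fall in hIAPP against WT was -0.26 and the call was lost (edgeR adjusted p = 0.159), while the difference from rIAPP was 0.96 (adjusted p = 2.32e-06). The call against WT was also lost in each run without WT 3, WT 4, WT 6, hIAPP 5 or hIAPP 6 (adjusted p = 0.0717 to 0.0870).

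Insulin RNA moved with Slc30a8. Ins1 fell in rIAPP by 1.21 ± 0.18 on the log2 scale (SE, edgeR adjusted p = 2.93e-05) and Ins2 by 0.87 ± 0.14 (adjusted p = 6.77e-05). In hIAPP the Ins2 value was -0.45 ± 0.14 (adjusted p = 0.0320) and the Ins1 value was -0.38 (adjusted p = 0.164). The lowest insulin shares of that genotype were those of hIAPP 5 and hIAPP 6, and without them the Ins2 call was lost (-0.23, adjusted p = 0.0995). With the acinar score as a covariate the rIAPP values were -0.93 for Ins1 (adjusted p = 0.0415) and -0.58 for Ins2 (adjusted p = 0.0945). Per count of Ins1 and Ins2, Slc30a8 counts were 0.00783 ± 0.000867 in WT (SD, n = 6), 0.00735 ± 0.000464 in hIAPP and 0.00672 ± 0.000842 in rIAPP, and the groups overlapped. In hIAPP 5 the ratio was 0.00781 and in hIAPP 6 it was 0.00656. Reads shared by Ins1 and Ins2, which are near-identical, depend on how the counting assigned them, and their sum is less open to this.

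Other genes of the granule pathway were taken from lists written from textbook knowledge, though with earlier results of these data known. Their counts stand beside 15.8% of all genes called in hIAPP against WT (7.53% lower, 8.31% higher) and 26.8% in rIAPP against WT (12.6% lower, 14.1% higher), and beside 20.6% and 42.4% of abundant genes. Of 15 hormone and peptide genes, 4 fell in hIAPP against WT and 11 did not pass, and in rIAPP 4 fell and 2 rose. Without hIAPP 5 and hIAPP 6 a single one, Npy, was lower in hIAPP (-1.75, adjusted p = 4.96e-06). With the acinar score as a covariate, 1 of the 15 was lower in hIAPP, and 3 were lower and 1 higher in rIAPP. Npy, a neuropeptide of immature beta cells, fell by 1.69 ± 0.15 in hIAPP and by 2.04 ± 0.15 in rIAPP (log2 scale, SE, adjusted p = 3.64e-07 and 3.48e-09). The mouse gene Iapp had a value of -0.42 ± 0.11 in hIAPP (adjusted p = 0.0156), a call that was lost without hIAPP 5 and hIAPP 6 (-0.36, adjusted p = 0.0837). Its rIAPP value was 0.19 (adjusted p = 0.234), in which reads of the rodent transgene and of the mouse gene cannot be told apart. Of 12 processing enzyme genes, 3 fell and 2 rose in hIAPP, and 4 fell and 1 rose in rIAPP, so that the share called in rIAPP was near that of abundant genes. When hIAPP 5 and hIAPP 6 were left out, 1 of the 12 was called in hIAPP, and it was lower. With the acinar score as a covariate, 1 of the 12 was lower in hIAPP, and 4 were lower and 1 higher in rIAPP. Ero1b, an oxidase of the endoplasmic reticulum that serves proinsulin folding, fell in rIAPP by 1.70 ± 0.20 on the log2 scale (adjusted p = 1.35e-06).

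Among 14 transporters and other proteins of the granule membrane and related membranes, 3 rose and 1 fell in hIAPP against WT, 1 rose and 7 fell in rIAPP against WT, and between the lines 8 were higher and 1 was lower in hIAPP. With the acinar score as a covariate, 1 was higher and 2 were lower in rIAPP against WT. In hIAPP against WT, 1 was higher and 0 were lower with that covariate. Their median log2 fold change was 0.00 in hIAPP against WT, -0.15 in rIAPP against WT and 0.18 between the lines, beside values between -0.01 and 0.00 for all genes. Tmem163, which encodes another zinc transporter, had 79.3 ± 4.24 CPM in WT (SD, n = 6), 66.3 ± 9.86 in hIAPP and 35.05 ± 5.30 in rIAPP, and fell in rIAPP by 1.18 ± 0.10 on the log2 scale (SE, edgeR adjusted p = 1.34e-08). Slc18a1, a vesicular monoamine transporter gene, rose in hIAPP by 0.62 ± 0.07 and in rIAPP by 0.70 ± 0.07 (adjusted p = 1.00e-05 and 3.69e-07). Cd63, a tetraspanin of late endosomes and granules that macrophages also express, rose in hIAPP by 0.31 ± 0.06 (adjusted p = 7.41e-04), and by 0.25 when hIAPP 5 and hIAPP 6 were left out (adjusted p = 0.0104). With the acinar score as a covariate its value was 0.23 and the call was lost (adjusted p = 0.0991). The part of the higher macrophage markers in the Cd63 rise was not tested.

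Of 22 genes of granule docking and exocytosis, 6 fell and 1 rose in hIAPP (1 and 1 without hIAPP 5 and hIAPP 6), and 10 fell and 3 rose in rIAPP (5 and 2 with the acinar score as a covariate), beside 15.8% and 26.8% of all genes called. With that covariate 0 fell and 0 rose in hIAPP. Cadps and Cadps2 encode CAPS proteins, which prime dense-core granules for release. Cadps fell in rIAPP by 1.08 ± 0.08 on the log2 scale (SE, edgeR adjusted p = 1.79e-09) while Cadps2 rose by 0.81 ± 0.05 (adjusted p = 1.69e-10), and in hIAPP their values were -0.07 and -0.08 (adjusted p = 0.627 and 0.292). Exph5, an effector of the granule GTPase Rab27, had 86.6 ± 7.07 CPM in WT (SD, n = 6) and 39.8 ± 6.01 in rIAPP, where it fell (adjusted p = 1.77e-08). Of 20 genes of granule biogenesis, 1 rose and 1 fell in hIAPP and 18 did not pass, and 4 fell and 2 rose in rIAPP. With the acinar score as a covariate, 1 of the 20 rose and 0 fell in hIAPP, and 1 rose and 1 fell in rIAPP. Golm1, a Golgi membrane protein gene, rose in hIAPP by 0.55 ± 0.07 and in rIAPP by 1.25 ± 0.07 (adjusted p = 1.87e-05 and 5.06e-11).

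Of 22 regulators of transcription and splicing in endocrine cells, 5 fell and 1 rose in hIAPP (4 called without hIAPP 5 and hIAPP 6, each lower), and 9 fell and 2 rose in rIAPP (5 and 1 with the acinar score as a covariate), beside 7.53% lower and 8.31% higher, and 12.6% lower and 14.1% higher, among all genes. With that covariate 1 fell and 0 rose in hIAPP. Mafa, which activates insulin genes in mature beta cells, held 305 ± 50.9 CPM in WT (SD, n = 6), 125 ± 37.6 in hIAPP and 49.7 ± 10.7 in rIAPP. It fell in hIAPP by 1.29 ± 0.18 and in rIAPP by 2.62 ± 0.19 (log2 scale, SE, adjusted p = 8.61e-05 and 2.79e-09), and without hIAPP 5 and hIAPP 6 the hIAPP value was -1.06 (adjusted p = 2.22e-04). Pdx1, a transcription factor of beta cell identity, fell in rIAPP by 1.07 ± 0.11 (adjusted p = 1.45e-07). Rest and Insm1 were named for their role, after their values were seen. Rest, the repressor of granin and neuronal genes, had values of 0.10 in hIAPP and 0.24 in rIAPP against WT (adjusted p = 0.553 and 0.0551). Insm1, an activator of endocrine differentiation, had 0.03 and -0.06 (adjusted p = 0.796 and 0.440).

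Of 13 measured genes of the response to activity, which calcium and cyclic AMP induce, 1 rose in hIAPP against WT, and 2 rose and 1 fell in rIAPP, which is no larger a share than the 15.8% and 26.8% of all genes called. The stress-responsive factor Atf3 rose in hIAPP by 1.31 ± 0.28 from 1.39 CPM in WT (SE, edgeR adjusted p = 0.00314). Without hIAPP 5 and hIAPP 6 the rise was 0.82 (edgeR adjusted p = 0.00882). In that run Atf3 also rose in rIAPP against WT, by 0.76 (edgeR adjusted p = 0.00185). The lines differed there by 0.05 (edgeR adjusted p = 0.879). With the acinar score as a covariate the hIAPP value against WT was 0.98 and the call was lost (adjusted p = 0.227). Npas4, an activity-dependent factor, held 4.55 CPM in WT and 0.875 in rIAPP, a fall of -2.38 ± 0.52 in log2 units (adjusted p = 0.00170), and its hIAPP value was -0.82 (adjusted p = 0.296). With the acinar score as a covariate, 0 of the 13 were called in rIAPP or in hIAPP against WT, so the Npas4 call was lost.

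**Figure D5:**
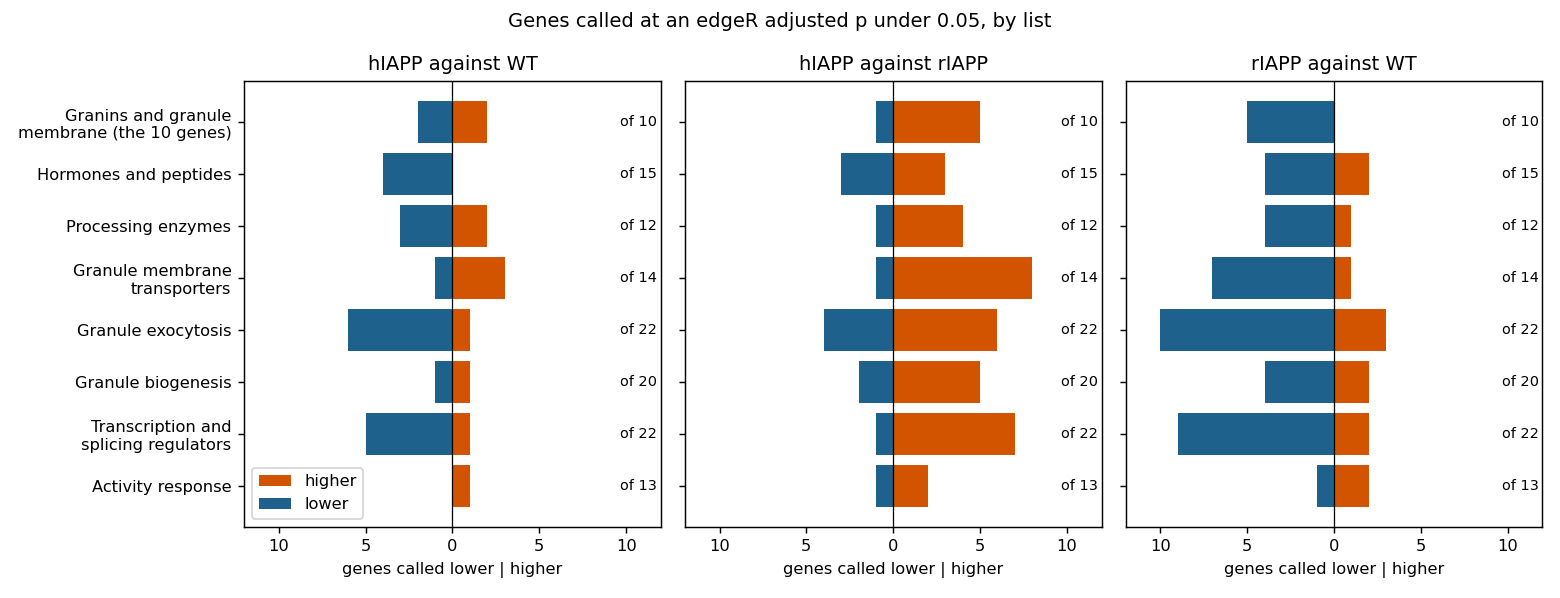
Number of genes called lower (left) and higher (right) at an edgeR adjusted p under 0.05 in each list and comparison, with the number tested at the right of each panel. The 10 granin and granule membrane genes have 2 lower and 2 higher in hIAPP against WT, 1 lower and 5 higher in hIAPP against rIAPP, and 5 lower in rIAPP against WT.

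Among the 10 genes, Scg3 and Slc30a8 had the most alike profiles over the 18 libraries, with a root mean square distance of 0.399 between standardised log2 CPM values, and Scg2 lay nearest to Scg3 (0.498). Chga and Ptprn were the farthest apart (1.95). Of 8596 other named genes with a mean of at least 10 CPM, the nearest to Slc30a8 was Mthfd1 (0.210), the nearest to Scg3 was Tmem163 (0.277) and the nearest to Scg2 was Pip5k1b (0.280). The nearest to Chga was Prkar1a (0.381), with 418 CPM in WT, 337 in hIAPP and 403 in rIAPP. For Vgf it was C1qa, a complement gene of macrophages (0.354), with 59.4 CPM in WT, 87.2 in hIAPP and 29.5 in rIAPP. Slco1a6 lay almost as near to Vgf (0.362), with 79.1 CPM in WT, 160 in hIAPP and 54.9 in rIAPP. The nearest to Ptprn2 was Fbxo44 (0.701). The libraries share genotype, so genes that differ between genotypes in the same order score as near.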

How the data were processed

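Islet RNA was column-purified and rRNA-depleted before sequencing, per the labels. The authors deposited un-normalised estimated counts, with a value for each symbol and mouse. HTSeq and STAR and the builds mm10 and GRCm38 are listed, without version numbers, in the submitters' processing notes; annotation and strandedness were not given in the sources used here. Of the values above 0, 39.2% were not whole (no tolerance), and counts were rounded. Of 54186 symbols, 49732 matched GENCODE M21.

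Counts were tested with edgeR 4.0.16 (R 4.3.3): TMM scaling, the filterByExpr filter by genotype, which left 20244 genes, a quasi-likelihood fit over 18 libraries and Benjamini-Hochberg adjustment. Tests were two-sided, and standard errors and 95% intervals come from the fit. Log2 CPM used a prior count of 2. The p-values set differences between genotypes against the spread among these mice, taken as independent. Litters and cages are not named in the labels, so this independence could not be checked.

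Alternatives were DESeq2 1.42.0, limma-voom (limma 3.58.1), other scalings, filters, covariates and left-out libraries. In simulated counts for hIAPP against WT (19990 genes), 22% of 1.2-fold, 74% of 1.5-fold, 100% of 2-fold and 98% of 4-fold changes were recovered, with 5 unchanged genes called.

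The 10 genes and the lists were chosen with earlier results of these data known. Named genes were the 10, up to 3 per list with the smallest p in a comparison, Pcsk1, Pcsk2, Ins1, Ins2 and Iapp, and for each of the 10 the nearest genes by profile. Rest, Insm1 and Gcg fall outside this rule and were named after their values were seen. Values of the other lists without hIAPP 5 and hIAPP 6, or with the acinar score as a covariate, were added after seeing the data.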

Additional observations from a re-analysis of the deposited data

Results flagged for a closer look

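Pcsk1n in rIAPP 6 lay far from the other libraries of its group, at 95.6 CPM beside 136 to 149, a gap of 0.754 of the group's range. Of 30 groups of 6 libraries looked at, this was the only one, and about 1 in 20 would be marked by chance. The fall of Pcsk1n in rIAPP against WT kept its call without this library (log2 fold change -0.25, edgeR adjusted p = 0.0323).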

How the results depend on the processing

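Vgf kept its call and direction in hIAPP against WT in 30 of 30 alternatives, as did Scg3 and Slc30a8 in rIAPP against WT and Chga, Scg2, Scg3, Vgf and Slc30a8 in hIAPP against rIAPP. With the acinar score as a covariate, 1 of the 10 genes was called in hIAPP against WT (768 of all genes, beside 3208) and 2 in rIAPP against WT (2074 of all genes, beside 5417); the cause was not tested. Without hIAPP 5 and hIAPP 6, 1678 genes were called in hIAPP against WT. Leaving out each library in turn gave 3 to 5 of the 10 genes in hIAPP against WT (2377 to 3919 of all genes), 5 to 7 in hIAPP against rIAPP (4865 to 5876) and 5 in rIAPP against WT (4711 to 5612). Genes that had not passed changed sign without passing, in hIAPP against WT unless said: with library totals alone Scg5 (0.0193) and Ptprn2 (0.0888), with the acinar covariate Scg5 (0.0633), Pcsk1n (0.0588) and Ptprn2 (0.0486) and, in rIAPP against WT, Chga (0.1444), without hIAPP 5 and hIAPP 6 Scg5 (0.0337) and Ptprn2 (0.0415). Leaving out each library gave -0.0669 to 0.0627 for Chgb, -0.0158 to 0.1404 for Scg2 and -0.0447 to 0.0177 for Ptprn2. The fall of Pcsk1n in rIAPP missed the threshold with library totals alone (-0.22, adjusted p = 0.0764) and with mouse number as a covariate (-0.25, adjusted p = 0.0573), and that of Slc30a8 in hIAPP with library totals alone (adjusted p = 0.0653) and with only the 2 genotypes compared (adjusted p = 0.0563). Length from the longest transcript moved the WT level per kilobase to 5731 for Chga, 708 for Scg3, 1142 for Scg5, 39.2 for Ptprn and 139 for Ptprn2. No paired analysis was made, because the labels give each mouse a number but name no litter, batch or other pairing between mice.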
